A study of Rattus norvegicus with 12 samples.

Results

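The members of 8 families of xenobiotic-metabolising enzymes were followed in rat lung after inhalation of crystalline nanocellulose (CNC), rod-shaped crystals prepared from plant cellulose. Members were taken by gene symbol alone. The pattern of symbols used no measured value, although it was chosen with earlier results of these data known. The symbols are those of cytochrome P450s (Cyp), flavin monooxygenases (Fmo), aldehyde dehydrogenases (Aldh), carboxylesterases (Ces), epoxide hydrolases (Ephx), glutathione transferases (Gst), sulfotransferases (Sult) and UDP-glucuronosyltransferases (Ugt). They cover 178 of the 30045 symbols in the count table, and 78 of the 178 had enough counts to be tested. The 100 others stayed under the filter on low counts. Of those, 39 had no count in any library, 41 had between 1 and 10 counts over all 12 libraries, and the highest, Fmo6, had 95.

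Each library is the RNA of a piece of lung from 1 male F344/DuCrl rat, an inbred Fischer strain, bought at 3 months of age. There were 6 rats per group, kept 3 to a cage, and both groups sat in whole-body inhalation chambers. The CNC group breathed 20 mg/m3 for 6 hours a day on 5 days a week until 14 exposure days had passed, the air group breathed air at 0 mg/m3, and lungs were collected 1 day after the last exposure. The question put by the design is how lung gene expression differs after repeated CNC inhalation.

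Phase 1 enzymes oxidise, reduce or hydrolyse foreign compounds, and phase 2 enzymes couple the products to glutathione, sulfate or glucuronic acid so that they can be excreted. Liver holds the widest set of these enzymes, but lung keeps its own, and in rodents the non-ciliated club cells of the small airways are known for P450s that can turn inhaled compounds such as naphthalene into reactive products. Several families are controlled by the aryl hydrocarbon receptor or by the oxidant-sensing factor Nrf2 (gene Nfe2l2), and in liver many follow the circadian clock.

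Library totals ran from 8693259 to 16603697 counts, and the 178 members took 0.444 to 0.605% of them. Levels are given as CPM, counts scaled to library size after TMM scaling, and a change is a log2 fold change of CNC over air with its standard error (SE), called at an adjusted p under 0.05. As a check of the tissue label, the 12 listed markers of alveolar type 2 cells summed to 24320 to 31770 CPM in air. The liver-defining Alb had 15 counts in air and 12 in CNC, and the liver P450s Cyp2c11 and Cyp3a2 had 0 counts in air and 2 and 1 in CNC. Of the 15 listed hepatocyte markers, 12 stayed under the filter. The 3 others were expressed and called, Fgg (0.47 ± 0.11) and Hpx (1.39 ± 0.16) higher and Serpina1 (-0.36 ± 0.12) lower. Fgg had a mean of 115 CPM in air and 159 CPM in CNC. Some libraries stood apart in the members: CNC replicates 3 and 6 in glutathione transferases, and air replicates 4 and 5 with CNC replicate 5 in airway P450s. Fold changes of those transferases and P450s that these rats moved are given with all rats and without those of 1 group at a time. These rats were singled out by values of the members themselves, so fits without them show dependence on them and are no test.

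After CNC inhalation, 5 abundant oxidising enzymes of the lung were lower: Fmo2 fell 1.84-fold, Cyp4b1 fell 1.55-fold, and Fmo1, Cyp2b1 and Aldh1a1 fell by less, the last pair in calls that were lost in 6 of 12 fits without 1 rat. Aldh2, as abundant as Aldh1a1, was not called. Rises were fewer and, apart from Cyp2c23 at 1.85-fold, small. Of the 78 tested members, 16 changed (20.5%), beside 24.6% of all 15019 tested genes. Lower calls made up 12 of the 16, or 15.4% of tested members beside 11.4% of all tested genes, and the 4 higher calls made up 5.13% beside 13.2%. The median log2 fold change was -0.03 over members and -0.00 over all tested genes. For 10 members the CPM ranges of the groups did not overlap, where 11.5% of all tested genes had such ranges. A change of at least 1.5-fold was called for 3 members, Fmo2, Cyp4b1 and Cyp2c23, beside 3.61% of all tested genes.

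The calls divided by level much as over all genes, and the counts by family rest on few tested genes in most families. Over all tested genes 11.4% were called lower and 13.2% higher. Lower calls were made for 4 of 30 tested Cyp genes, 3 of 5 Fmo, 3 of 15 Aldh, 1 of 4 Ephx and 1 of 16 Gst. Higher calls were made for 1 gene each of the Cyp, Aldh, Gst and Ugt families, and none of the 3 tested Ces and 3 tested Sult genes changed. Among the 11 members with a mean of at least 100 CPM, 5 were lower and 0 higher (45.5% called). Of the 2448 genes in that class, 630 were lower and 445 higher (43.9% called). The called share was 22.9% of members beside 25% of all genes at 10 to 100 CPM. Under 10 CPM it was 9.38% beside 13.3%. The air rats held 5860 ± 132 CPM summed over all members, against 4910 ± 335 CPM for the CNC rats (SD over 6 rats). Most of that gap lay in the Fmo sum, at 1360 ± 132 against 842 ± 65.2 CPM, and in the Cyp sum, at 1720 ± 35.4 against 1360 ± 49.2 CPM. Neither sum was tested.

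**Figure D1:**
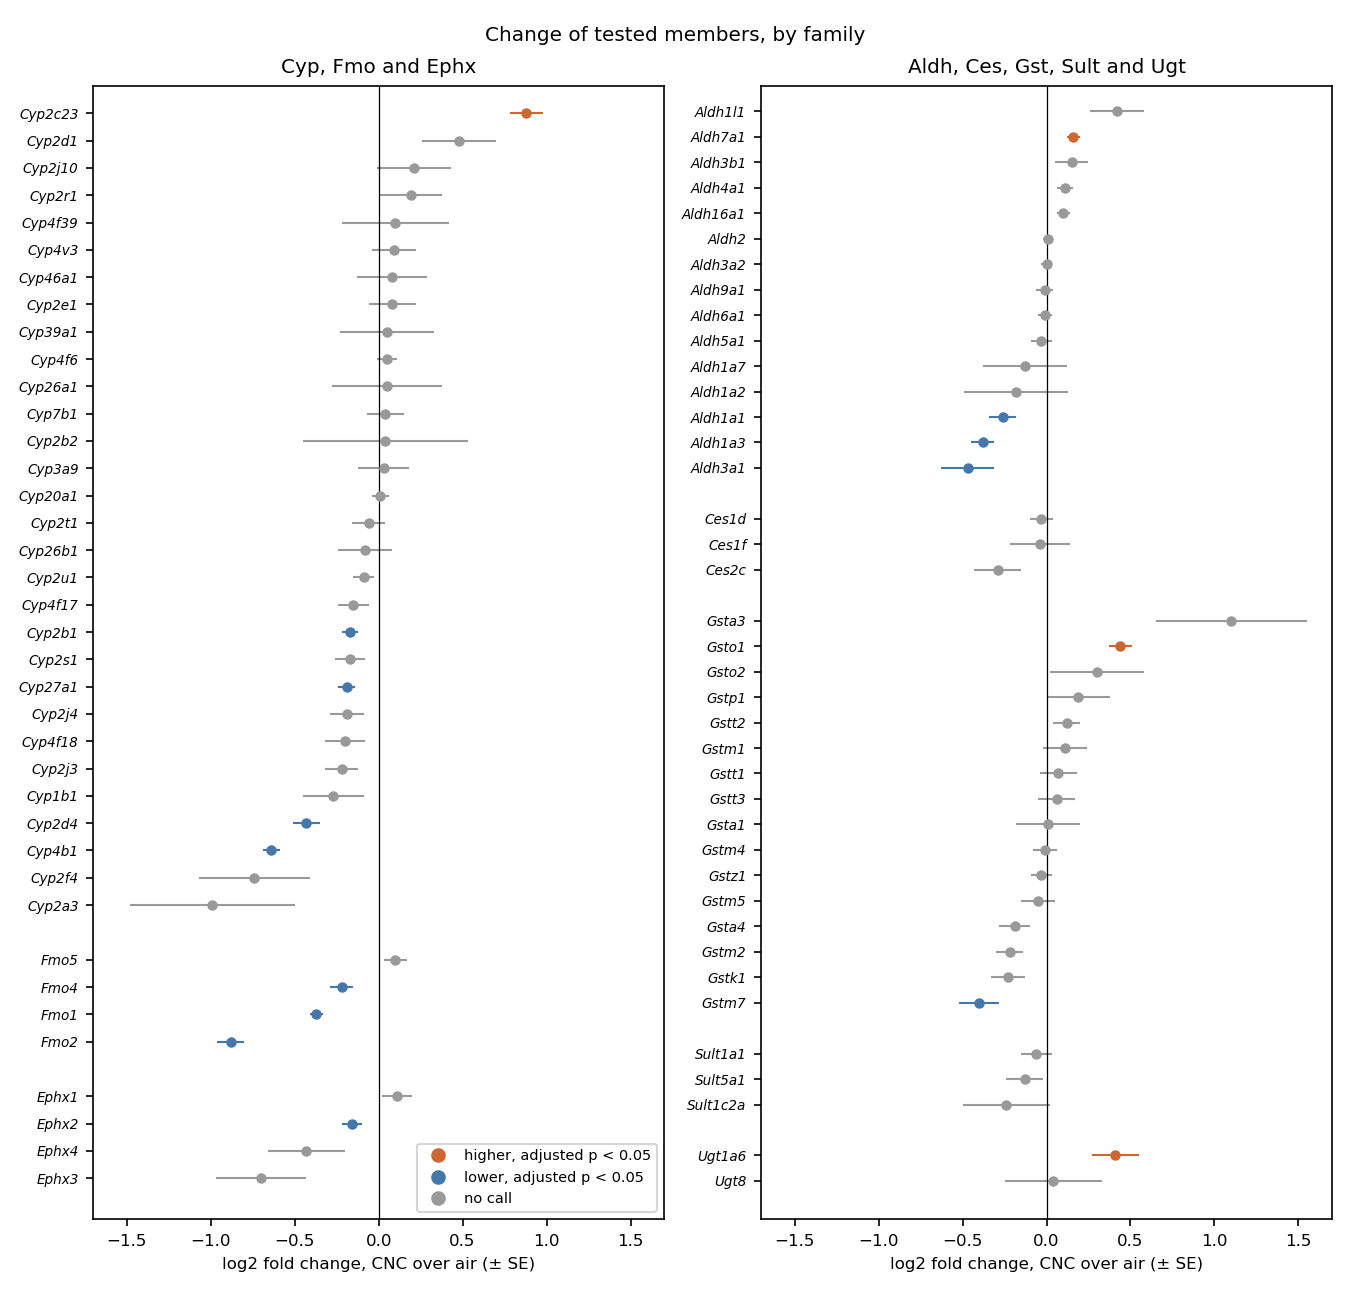
Log2 fold change of CNC over air (x axis, points, with bars for ± SE) for the tested members reported here, grouped by family and ordered by size; 6 rats per group. Orange marks the 4 members called higher and blue the 12 called lower, with Fmo2 at -0.88 and Cyp2c23 at 0.88 as the called genes farthest from 0, while Gsta3 at 1.10 and Cyp2a3 at -0.99 have wide bars and no call.

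In this plot of fold changes most uncalled genes gather around 0. The number of calls moved with air replicate 2, with CNC replicates 3 and 6 and with a clock covariate. Without air replicate 2, 10 members changed, 7 of them lower, and leaving out each of the other rats gave counts up to 19. Without CNC replicates 3 and 6, 18 members changed, 2 higher and 16 lower, while calls over all tested genes were fewer than with all rats. Clock genes separated the groups: their first component (87.5% of the variance of 16 genes) ran from -2.92 to 0.40 in air and from 0.60 to 2.53 in CNC. With that component as a covariate, 1 member (Cyp4b1), 7 genes of the pathway lists described below and 587 genes in all were called, 15 of the 16 kept their sign, and their SE was a median of 2.12 times as large. Exposure and clock state cannot be told apart in these rats, and this limit holds for each call below.

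Bases upstream of 4 genes are shown because the results turn on them: Cyp4b1 and Fmo2 fell the most among called members, Cyp2c23 rose the most, and Gstp1 was high in 2 CNC rats alone. Each run is the 250 bases before the annotated start, 5′ to 3′ on the gene's own strand, from RefSeq on the build GRCr8, which is not the build of the counts. The genes lie on the minus strand, at chr5:134393117-134393366 for Cyp4b1, chr13:77777535-77777784 for Fmo2, chr1:252863068-252863317 for Cyp2c23 and chr1:210769706-210769955 for Gstp1. Capitals mark matches, on either strand, to the antioxidant response letters TGACNNNGC or to the xenobiotic response core GCGTG, and none of the 4 holds the E-box CACGTG.
Cyp4b1: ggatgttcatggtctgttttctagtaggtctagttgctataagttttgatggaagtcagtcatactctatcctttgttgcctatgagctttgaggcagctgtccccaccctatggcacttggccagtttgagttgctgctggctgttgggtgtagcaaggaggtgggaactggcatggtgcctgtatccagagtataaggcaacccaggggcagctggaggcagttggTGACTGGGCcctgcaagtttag
Fmo2: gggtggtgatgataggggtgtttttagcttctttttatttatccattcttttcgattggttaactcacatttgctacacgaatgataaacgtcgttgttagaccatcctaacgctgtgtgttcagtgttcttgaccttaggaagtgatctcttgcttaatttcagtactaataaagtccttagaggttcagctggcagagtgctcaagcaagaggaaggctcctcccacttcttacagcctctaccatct
Cyp2c23: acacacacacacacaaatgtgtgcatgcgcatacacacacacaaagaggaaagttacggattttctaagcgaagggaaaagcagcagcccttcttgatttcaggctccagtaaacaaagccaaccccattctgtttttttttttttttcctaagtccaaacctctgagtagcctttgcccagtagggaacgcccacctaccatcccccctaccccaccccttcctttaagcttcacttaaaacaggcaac
Gstp1: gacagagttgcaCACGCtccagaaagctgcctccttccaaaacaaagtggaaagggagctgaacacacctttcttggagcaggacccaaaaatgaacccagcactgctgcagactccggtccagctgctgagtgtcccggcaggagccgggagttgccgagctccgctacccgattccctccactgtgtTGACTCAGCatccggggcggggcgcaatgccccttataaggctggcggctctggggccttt
The antioxidant match of Cyp4b1 lies 22 to 14 bases before its start and that of Gstp1 61 to 53 bases before, and the core of Gstp1 lies 238 to 234 bases before its start on the opposite strand. Among all 33469 RefSeq promoters, 10.1% held the antioxidant letters, 25.9% the core and 5.59% the E-box in this window. Among the 154 promoters of 143 members the shares were 11%, 25.3% and 1.3%. Of the 9 lower members with an entry, 2 held the antioxidant letters and 2 the core, and of the 4 higher members 0 and 2 did. Among the 58 promoters of tested members without a call, 17.2% held the antioxidant letters and 41.4% the core. A match of letters is a description and shows no binding.

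Among the 30 tested P450s, 4 were called lower and 1, Cyp2c23, higher, while 15 lay below 0 and 15 above. Cyp4b1, which in rodents is most active in lung and turns furans such as 4-ipomeanol into toxic products, lay between 599.5 and 718.6 CPM in the air rats, with a median of 656.4. Its range in the CNC rats was 401.0 to 453.9 CPM, with a median of 417.6. All CNC rats lay below all air rats. The log2 fold change was -0.64 ± 0.05 SE (edgeR adjusted p = 5.2e-07), and the call held in all 23 alternative settings, with values from -0.69 to -0.42.

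Cyp2d4, a P450 of the debrisoquine hydroxylase subfamily known in rat from brain, lay between 24.24 and 30.39 CPM in air (median 24.83) and between 17.45 and 22.35 in CNC (median 18.58). The ranges did not overlap, and the log2 fold change was -0.43 ± 0.08 (adjusted p = 0.000646). Cyp2c23, an epoxygenase of arachidonic acid best known from rat kidney, went the other way. Its level ran from 6.556 to 8.913 CPM in air (median 7.876) and from 11.35 to 16.72 CPM in CNC (median 14.0). Every CNC rat was above every air rat, with a log2 fold change of 0.88 ± 0.10 (adjusted p = 2.29e-05).

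Smaller falls were called for Cyp2b1, the phenobarbital-inducible P450 of rat liver that lung makes without induction, and for Cyp27a1, the mitochondrial sterol 27-hydroxylase. Cyp2b1 went from 518.1 ± 50.1 to 459.5 ± 14.1 CPM (SD, n = 6 per group) with overlapping ranges and a log2 fold change of -0.17 ± 0.05 (adjusted p = 0.0294). That call was lost when any 1 of air replicates 2, 3 and 6 or CNC replicates 2, 3 and 6 was left out, with adjusted p from 0.0514 to 0.0751, and its sign turned to 0.12 with the clock covariate. Reads of Cyp2b1 and its near-identical copy Cyp2b2 may be split, and Cyp2b2 was at 0.04 ± 0.49 (adjusted p = 0.965). Cyp27a1 went from 54.8 ± 3.52 to 48.1 ± 3.02 CPM with overlapping ranges and a log2 fold change of -0.19 ± 0.05 (adjusted p = 0.0134).

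P450s that mark contact with aryl hydrocarbons or solvents gave no call. Cyp1a1, the classic target of the aryl hydrocarbon receptor, had 20 counts over the air libraries and 31 over the CNC libraries and stayed under the filter. Fitted with no filter, it was at 0.64 (adjusted p = 0.464). Cyp1b1, another target of that receptor, was at -0.27 ± 0.18 (adjusted p = 0.333), and Cyp2e1, which oxidises ethanol and small solvents, was at 0.08 ± 0.14 (adjusted p = 0.748).

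**Figure D2:**
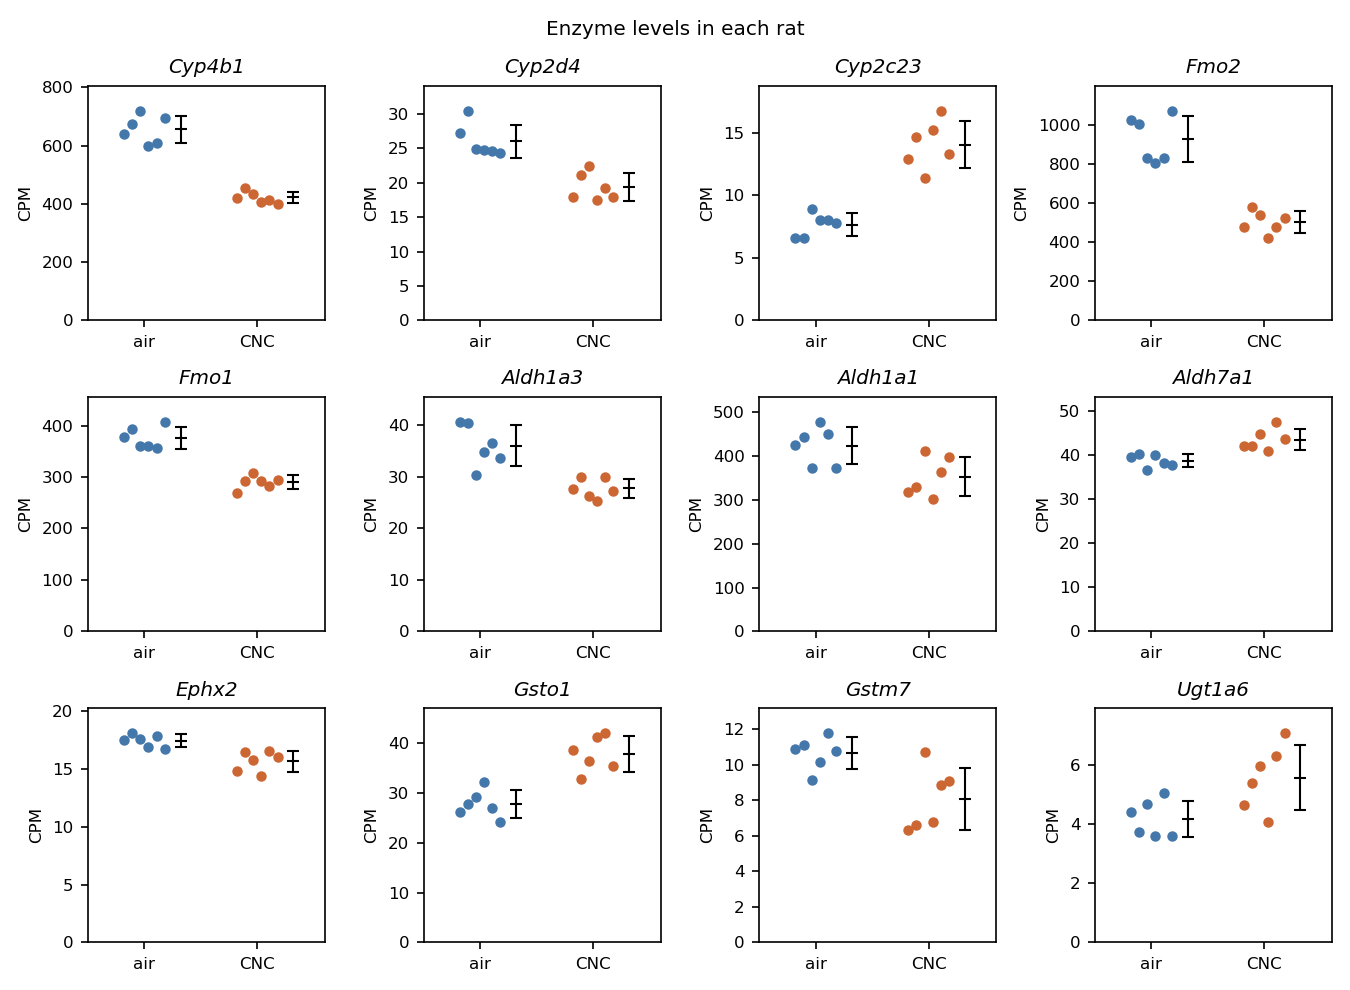
Level in CPM (y axis, linear from 0) of 12 called members in each rat, with air in blue and CNC in orange; black marks give the mean ± SD over 6 rats. The groups do not overlap for Cyp4b1, Cyp2d4, Cyp2c23, Fmo2, Fmo1, Aldh1a3, Aldh7a1, Ephx2 and Gsto1, and they overlap for Aldh1a1, Gstm7 and Ugt1a6.

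The plot of 12 called members by rat shows wide gaps between the groups for Cyp4b1, Cyp2c23, Fmo2 and Fmo1, and narrow gaps for Ephx2 and Aldh7a1. Airway P450s are a separate case, since a few rats decided their values. Cyp2f4, the naphthalene-activating P450 of rat club cells, was at 41.49, 64.98, 50.98, 125.9, 111.8 and 46.50 CPM in air replicates 1 to 6, and at 24.49, 52.08, 47.32, 31.25, 84.18 and 23.51 CPM in CNC replicates 1 to 6. Air replicates 4 and 5 and CNC replicate 5 stood above the rest of their groups. The log2 fold change was -0.74 ± 0.33 (adjusted p = 0.116). Without CNC replicate 5 it was -1.03 (adjusted p = 0.0271), and without air replicates 4 and 5 it was -0.23 ± 0.29 (adjusted p = 0.63). Here and below, each such fit left out the high rats of 1 group and kept those of the other. No fit left out all of them, so neither value compares the remaining rats alone.

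Cyp2a3, a P450 of rat lung and nasal lining, was highest in the same 3 rats, at 111.8 and 59.67 CPM in air replicates 4 and 5 and at 54.39 CPM in CNC replicate 5. The other rats lay between 17.15 and 29.92 CPM in air and between 5.954 and 28.01 CPM in CNC. Its log2 fold change of -0.99 ± 0.49 missed the threshold (adjusted p = 0.165). Without CNC replicate 5 it was -1.46 (adjusted p = 0.0418), and without air replicates 4 and 5 it was -0.10 ± 0.43 (adjusted p = 0.896). Cyp2s1, an epithelial P450, was at -0.17 ± 0.09 (adjusted p = 0.198), at -0.25 without CNC replicate 5 (adjusted p = 0.0356) and at -0.08 without air replicates 4 and 5 (adjusted p = 0.582). Leaving out CNC replicate 5 raised the number of changed Cyp genes from 5 to 8, while calls over all tested genes became fewer. That rat was left out as the highest CNC rat for Cyp2f4, Cyp2a3 and Cyp2s1, so the rise is no test of lower airway P450s.

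Some airway markers were high in these same 3 rats, and heart muscle markers in air replicates 4 and 5. Scgb3a1, an airway secretoglobin, was at 101.5 and 35.35 CPM in air replicates 4 and 5 and at 39.66 CPM in CNC replicate 5, and between 1.716 and 11.48 CPM in the 9 others. Air replicates 4 and 5 were the top air rats in 14 of 78 members (17.9%), beside 11% of all tested genes. They were also the top air rats in 11 of 12 tested ciliated cell markers, 6 of 9 tested club cell markers and 9 of 9 tested heart muscle markers. The heart muscle sums were 435.7 and 325.0 CPM in these 2 rats, 14.26 to 133.8 CPM in the other air rats and 14.49 to 127.9 CPM in CNC. The 15 ciliated cell markers, of which 12 were tested and 1 called lower, summed to 804.0 to 1009 CPM in air and 666.4 to 933.0 CPM in CNC. Tppp3, the marker called lower, made up 59.2 to 70.1% of that sum in air, and without it the sums were 264 to 411 CPM in air and 233 to 443 CPM in CNC. The 11 club cell markers, with 9 tested, 2 called higher and 2 lower, summed to 4936 to 6615 CPM in air and 4583 to 5757 CPM in CNC, nearly all of it the secretoglobin Scgb1a1 (log2 fold change -0.27 ± 0.08, adjusted p = 0.0159). No marker of the club, ciliated and heart muscle lists was without a count, and their part in the P450 values was not tested. In bulk tissue, fewer cells of a type and less RNA per cell cannot be told apart.

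**Figure D3:**
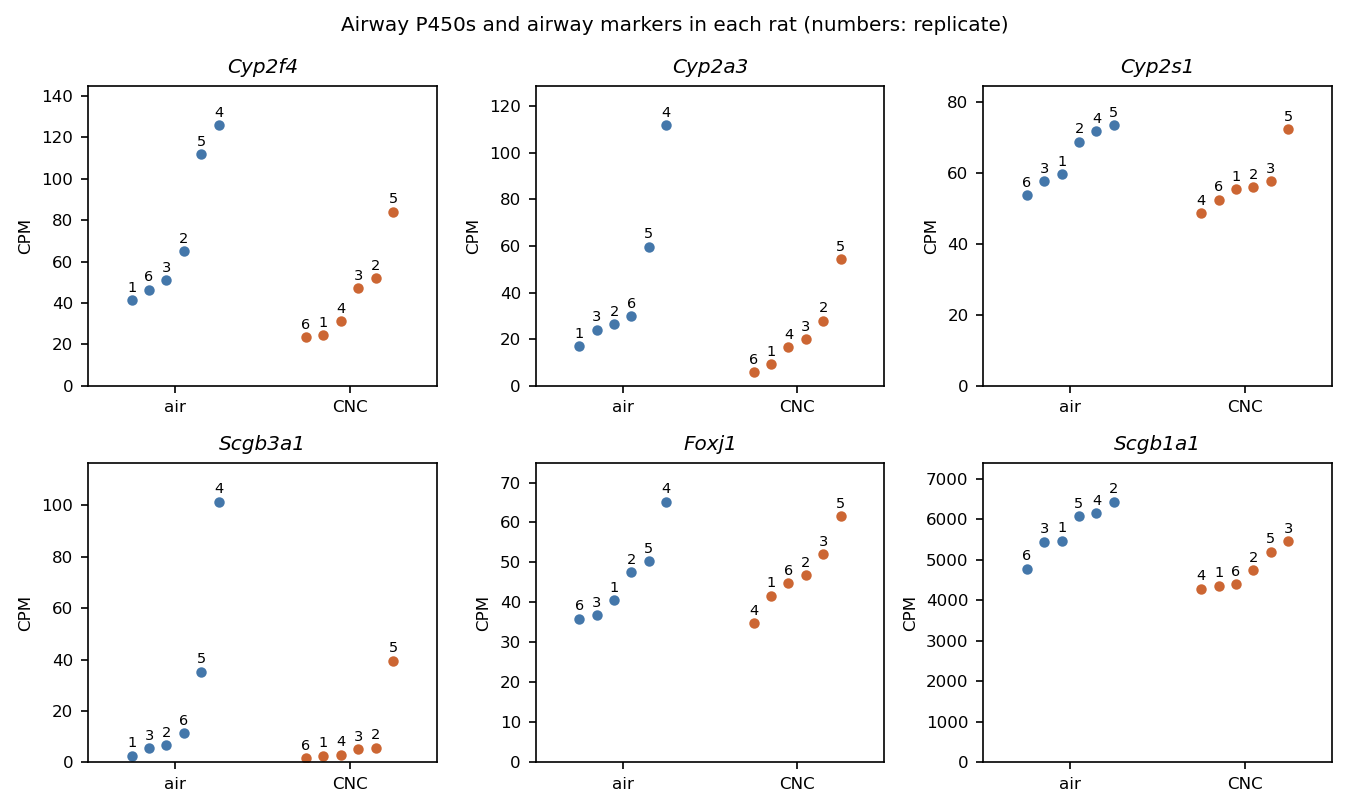
Level in CPM (y axes, linear from 0) of the airway P450s Cyp2f4, Cyp2a3 and Cyp2s1 (top) and of the airway markers Scgb3a1, Foxj1 and Scgb1a1 (bottom) in each rat, ordered within its group; the number beside a point is the replicate. Air replicate 4 is highest of the air rats for Cyp2f4 (125.9 CPM), Cyp2a3, Scgb3a1 (101.5 CPM) and Foxj1, and CNC replicate 5 is highest of the CNC rats for the same genes.

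In the plot of airway P450s and markers, the order of the rats is alike for Cyp2f4, Cyp2a3 and Scgb3a1, while Scgb1a1 spreads less. The flavin monooxygenases add oxygen to nitrogen and sulfur atoms of drugs and amines and had the largest share of lower calls of the 8 families. Of 8 listed genes, 5 were tested, 3 were lower and none higher, where 11.4% of all tested genes were lower. With so few genes this share is uncertain, and the Fmo4 call was lost in 9 of 12 fits without 1 rat. In the RefSeq gene table of GRCr8, Fmo5 lies on chromosome 2 and the other listed Fmo genes on chromosome 13.

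Fmo2 is the main Fmo gene of mammalian lung, although laboratory rats are reported to carry a version that makes a truncated protein. It lay between 806.7 and 1070 CPM in air (median 917.0) and between 419.9 and 580.3 CPM in CNC (median 500.3). No CNC rat reached the lowest air rat. The log2 fold change was -0.88 ± 0.08 (adjusted p = 3.37e-06). Fmo1, which oxygenates a broad range of amines in rodent kidney, liver and lung, lay between 357.3 and 406.7 CPM in air (median 369.2) and between 269.8 and 308.6 CPM in CNC (median 292.7). These ranges were also separate, with a log2 fold change of -0.37 ± 0.04 (adjusted p = 1.22e-05). Both calls held in each of the 12 fits without 1 rat.

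Fmo4, a minor family member, went from 11.8 ± 1.19 to 10.1 ± 0.274 CPM (SD, n = 6 per group) without overlap, at -0.22 ± 0.07 (adjusted p = 0.0353). This call was lost without air replicate 2, 3, 5 or 6, without CNC replicate 1, 2, 3, 4 or 5, and by the DESeq2 Wald test (adjusted p from 0.0504 to 0.0903). Fmo5, which inserts oxygen beside ketones, was at 0.10 ± 0.07 (adjusted p = 0.378). Fmo6 stayed under the filter on low counts, with 67 counts in air and 28 in CNC, and Fmo9 and Fmo13 had no count.

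Of the 15 tested aldehyde dehydrogenases, 3 were lower, 1 was higher and 11 had no call. Aldh1a3, a retinaldehyde dehydrogenase, lay between 30.41 and 40.63 CPM in air (median 35.67) and between 25.35 and 30.02 CPM in CNC (median 27.49). The highest CNC rat stayed just under the lowest air rat, and the log2 fold change was -0.38 ± 0.07 (adjusted p = 0.000996). Aldh1a1, the abundant cytosolic retinaldehyde dehydrogenase, ran from 372.2 to 477.6 CPM in air (median 434.4) and from 303.0 to 411.2 CPM in CNC (median 345.7). These ranges overlapped, and the log2 fold change was -0.26 ± 0.08 (adjusted p = 0.0253). The call was lost without air replicate 2, 4 or 5 or CNC replicate 1, 2 or 4, with adjusted p from 0.0547 to 0.0611. Aldh1a2, the remaining retinaldehyde dehydrogenase of this group, was at -0.18 ± 0.31 (adjusted p = 0.735).

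Aldh3a1, which in rat liver is induced through the aryl hydrocarbon receptor, went from 3.40 ± 0.741 to 2.44 ± 0.337 CPM with overlap, at -0.47 ± 0.16 (adjusted p = 0.043). It lost its call by the DESeq2 Wald test, by limma-voom and without air replicate 3, 4 or 6 or CNC replicate 1, 2, 3, 4 or 6, with adjusted p from 0.0569 to 0.0976. Aldh7a1, which acts in lysine breakdown and on betaine aldehyde, rose: it lay between 36.65 and 40.10 CPM in air (median 38.75) and between 40.94 and 47.38 CPM in CNC (median 42.83). The groups were separate by a narrow gap, and the log2 fold change of 0.16 ± 0.04 (adjusted p = 0.0105) lost its call without CNC replicates 3 and 6 (adjusted p = 0.055). Aldh2, the mitochondrial enzyme that clears acetaldehyde, was at 432.9 ± 5.59 CPM in air against 435.3 ± 22.8 CPM after CNC (adjusted p = 0.905).

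Hydrolases gave a single call. Ces1d, a carboxylesterase that splits ester drugs and lipids in rodents, stood at 502.4 ± 18.8 CPM in air against 490.6 ± 67.3 CPM after CNC, a log2 fold change of -0.03 ± 0.07 (adjusted p = 0.78). It was at -0.16 without CNC replicates 3 and 6 (adjusted p = 0.0485). Ephx2, the soluble epoxide hydrolase that breaks down epoxides of arachidonic acid, lay between 16.70 and 18.10 CPM in air (median 17.54) and between 14.36 and 16.56 CPM in CNC (median 15.90). Its ranges were separate by a small margin, with a log2 fold change of -0.16 ± 0.06 (adjusted p = 0.0491). That call was lost in 17 of 23 other settings, among them each fit without 1 air rat, each without CNC replicate 1, 3, 4 or 6, and the DESeq2 Wald test (adjusted p = 0.103). Ephx1, the microsomal epoxide hydrolase of aromatic epoxides, was at 0.11 ± 0.09 (adjusted p = 0.411), and without air replicates 4 and 5 it was at 0.24 (adjusted p = 0.0238). Ephx3 was at -0.70 ± 0.27 (adjusted p = 0.0673).

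Turning to conjugation, the glutathione transferases as a family showed 1 higher call, 1 lower call and a median of 0.04. Gsto1, an omega class enzyme that reduces dehydroascorbate and arsenicals, lay between 24.24 and 32.31 CPM in air (median 27.48) and between 32.83 and 42.05 CPM in CNC (median 37.60). All CNC rats were above all air rats, and the log2 fold change was 0.44 ± 0.07 (adjusted p = 0.00036). Gstm7, of the mu class, lay between 9.163 and 11.78 CPM in air (median 10.83) and between 6.345 and 10.71 CPM in CNC (median 7.820). The ranges overlapped through CNC replicate 3, the highest CNC rat, and the log2 fold change was -0.40 ± 0.12 (adjusted p = 0.0274). It lost its call without air replicate 1, 2 or 5 or CNC replicate 1, 2 or 4 (adjusted p from 0.0524 to 0.0635).

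Glutathione transferases also differed among the CNC rats. CNC replicates 3 and 6 were the top CNC rats in 13 of 16 tested Gst genes, the exceptions being Gsto1, Gsto2 and Gstm4. Over all tested members the same pair was on top in 26 of 78 (33.3%), beside 9.71% of all tested genes. Gsta3, an alpha class enzyme, was at 14.40 and 15.44 CPM in these rats, between 2.683 and 3.297 CPM in the other CNC rats and between 2.521 and 3.991 CPM in air. Gstp1, the pi class enzyme that is a marker of rat liver tumours, was at 253.6 and 224.2 CPM in the pair, between 107.5 and 120.9 CPM in the other CNC rats and between 130.8 and 147.2 CPM in air. The 4 other CNC rats thus lay below all air rats for Gstp1, while the pair lay above all of them.

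With all rats, neither gene was called: Gsta3 was at 1.10 ± 0.45 (adjusted p = 0.0924) and Gstp1 at 0.19 ± 0.19 (adjusted p = 0.511). Without CNC replicates 3 and 6, Gstp1 was at -0.25 (adjusted p = 0.00167) and Gsta3 at -0.11 (adjusted p = 0.682). Gsta1, the main alpha class gene of the list, was at -0.37 (adjusted p = 0.0386) in that fit. There 7 of the 16 tested Gst genes changed, while calls over all tested genes were fewer than with all rats. These rats were left out for their high Gst values, so the count is no test of a lower Gst level. With all rats Gsta1 was at 0.01 ± 0.19 (adjusted p = 0.979), Gstm1, of the mu class, at 0.11 ± 0.13 (adjusted p = 0.601) and Gstt1, of the theta class, at 0.07 ± 0.11 (adjusted p = 0.695). Genes of the alpha and mu classes have close copies, so that reads may be split among them.

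Other genes moved with the same pair of rats. Nqo1, a quinone reductase and Nrf2 target, was at 102.5 and 112.1 CPM in CNC replicates 3 and 6 and between 47.27 and 54.15 CPM in the other CNC rats, close to the 46.61 to 54.43 CPM of the air rats. Gclc, the catalytic subunit of the first enzyme of glutathione synthesis, was at 67.69 and 70.95 CPM in the pair and between 37.09 and 45.95 CPM in the other CNC rats. The pair was on top in 8 of the 17 genes for cosubstrate supply described below (47.1%), beside 9.71% of all tested genes. It was not on top for the cystine importer Slc7a11 or the haem-degrading Hmox1. RNA of Nrf2 itself (Nfe2l2) was at 0.04 ± 0.03 (adjusted p = 0.397) between the groups. That value does not set the pair apart, and Nrf2 activity was not tested. Whether these rats shared a cage, a lung region or a handling step was not tested.

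**Figure D4:**
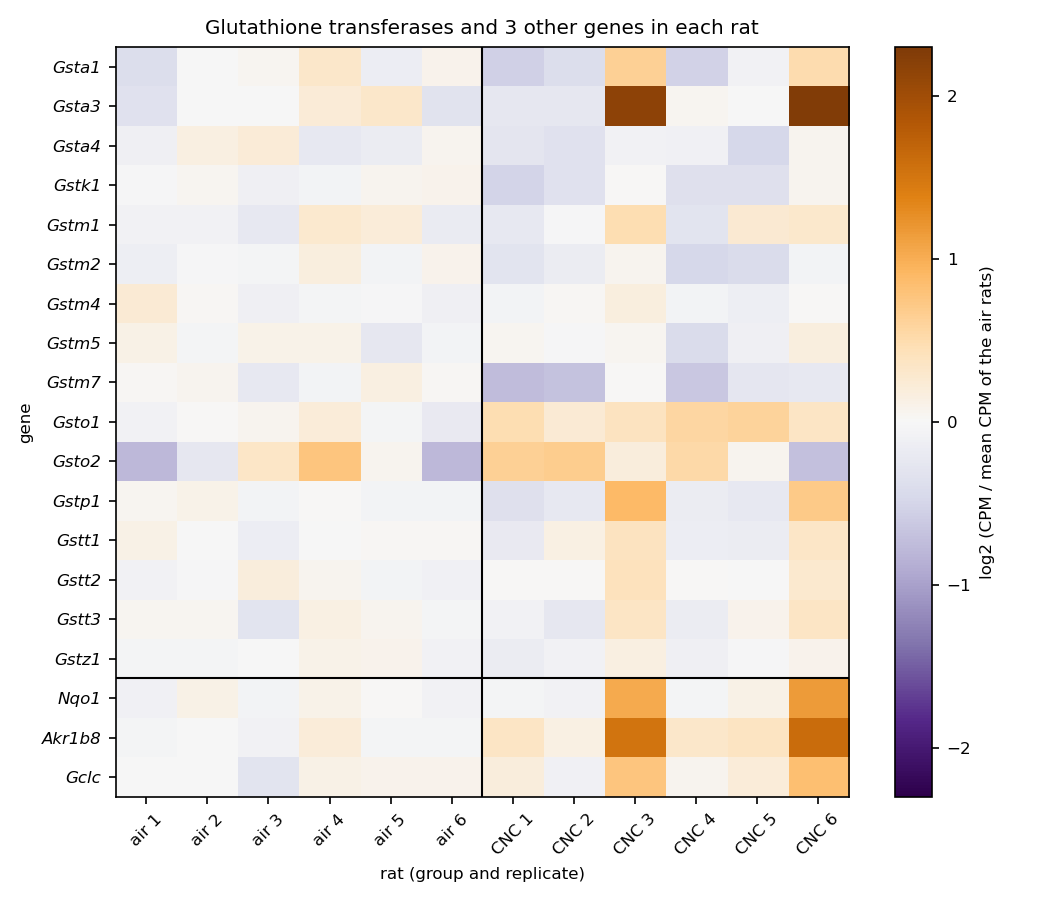
Colour gives log2 of the level in CPM over the mean of the air rats for the 16 tested glutathione transferases and, under the line, Nqo1, Akr1b8 and Gclc (rows) in the 12 rats (columns); orange is higher and purple lower than the air mean. CNC replicates 3 and 6 are the darkest orange columns, with Gsta3 at 14.40 and 15.44 CPM, while Gsto1 is orange in all 6 CNC rats.

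The plot of glutathione transferases by rat sets the 2 patterns apart: Gsto1 is raised in each CNC rat, and Gsta3, Gstp1 and Nqo1 in CNC replicates 3 and 6. Sulfotransferases and glucuronosyltransferases were sparsely expressed, with 3 of 13 and 2 of 18 members tested. Sult1a1, the phenol sulfotransferase, was at 134.1 ± 16.1 CPM in air against 128.0 ± 17.99 CPM after CNC (log2 fold change -0.06 ± 0.09, adjusted p = 0.658). Ugt1a6, which glucuronidates small phenols, ran from 3.590 to 5.036 CPM in air (median 4.055) and from 4.053 to 7.064 CPM in CNC (median 5.663). The ranges overlapped, and the log2 fold change was 0.41 ± 0.14 (adjusted p = 0.0489).

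The Ugt1a6 call was lost in 15 of 23 other settings, among them limma-voom, the fits without air replicate 1, 2, 4 or 6 and those without CNC replicate 2, 3, 5 or 6 (adjusted p from 0.0615 to 0.104). Genes of the Ugt1a cluster share their last exons, so that reads there cannot be assigned to 1 of them. Ugt1a7c, a neighbour in that cluster, had 0 counts in air and 8 in CNC, and the liver enzymes Ugt2b1 and Sult2a1 had 0 counts in both groups. With no filter on counts, 61 of the untested members could be fitted, and Fmo6 (log2 fold change -1.26, adjusted p = 0.0102) and Ugt1a7c (adjusted p = 0.036) were called.

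The genes that supply these families with cosubstrates were mostly higher or without a call. Of 17 genes for NADPH, glutathione, sulfate and sugar nucleotide supply, 9 were higher and none lower. Their median was 0.25, beside a median of -0.00 over all tested genes. The shares over all tested genes, 13.2% higher and 11.4% lower, are the background for this and the following lists. Without CNC replicates 3 and 6, 8 of the 17 were higher and the median was 0.15. The higher genes included Taldo1 (0.36 ± 0.04, adjusted p = 5.02e-06), an enzyme of the pentose phosphate pathway, Me1 (0.61 ± 0.10), which makes NADPH, and Slc7a11, the cystine importer for glutathione synthesis, at 1.90 ± 0.23. Among 21 genes for electron donors and haem, 9 were higher and 3 lower. The haem-degrading Hmox1 (1.07 ± 0.08, adjusted p = 8.19e-07) and the haem synthesis enzymes Alad (0.26 ± 0.05) and Urod (0.19 ± 0.04) were higher, while the cytochrome b5 reductase Cyb5r3 was lower (-0.26 ± 0.04). Por, the reductase that passes electrons to microsomal P450s, was higher at 0.18 ± 0.05 (adjusted p = 0.0119).

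Other enzymes of both phases were mixed. Of 25 tested phase 1 genes outside the families, 3 were higher (12%) and 7 lower (28%), or 1 and 7 without CNC replicates 3 and 6, with the retinal reductase Dhrs3 (-0.31 ± 0.05), the pyrimidine reductase Dpyd (-0.30 ± 0.05), Akr1c14 (-0.26 ± 0.05) and the monoamine oxidase Maoa (-0.19 ± 0.04) among the lower. Of 16 tested conjugating genes outside the families, 6 were higher and 1 lower, led by the thiopurine methyltransferase Tpmt (0.51 ± 0.07), the microsomal glutathione transferases Mgst1 (0.50 ± 0.07) and Mgst2 (0.50 ± 0.08), and Ggt1 (0.75 ± 0.17). Of 21 tested transporters, 5 were higher and 5 lower, with Slco3a1 (-0.28 ± 0.03), Abcc6 (-0.46 ± 0.07) and the prostaglandin carrier Slco2a1 (-0.32 ± 0.05) lower and Abcb4 (0.69 ± 0.11) and Slc47a1 (0.92 ± 0.15) higher.

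Regulators of the families moved both ways. Of 30 tested receptors and regulators, 5 were higher and 6 lower. The aryl hydrocarbon receptor gene Ahr fell (-0.36 ± 0.08, adjusted p = 0.00333), as did the retinoic acid receptor Rarg (-0.23 ± 0.04) and the glucocorticoid receptor Nr3c1 (-0.15 ± 0.03), and the small Maf gene Maff rose (0.34 ± 0.08). Of 16 tested clock genes, 8 were higher and 6 lower, among them Bhlhe41 (0.98 ± 0.10) and Bhlhe40 (0.59 ± 0.07), which were higher, and Npas2 (-0.79 ± 0.09) and Arntl (-0.96 ± 0.13), which were lower.

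Markers of other lung cells also differed between the groups beside the falls of Fmo2, Fmo1 and Cyp4b1. Of 14 endothelial markers 13 were lower and none higher, with sums of 6787 to 7739 CPM in air and 5628 to 6277 CPM in CNC. Of 11 alveolar type 1 markers 8 were lower, and of 12 alveolar type 2 markers 10 were higher, their sums rising from the range of 24320 to 31770 CPM to that of 32600 to 39830 CPM. Of 10 tested macrophage markers 8 were higher and 1 lower (14160 to 18940 CPM in air, 23230 to 28960 CPM in CNC, with Marco without a count). Lyz2, which alveolar type 2 cells also make in rodents, was 94.5 to 96.7% of the macrophage sum, and without it the sums were 688 to 817 CPM in air and 765 to 1080 CPM in CNC. Of 11 tested neutrophil markers 5 were higher and 1 lower (181.1 to 282.9 and 449.8 to 707.5 CPM). Of 9 tested fibroblast markers 5 were lower, and none of the 9 tested heart muscle markers was called. The part of these cells in the enzyme changes was not tested.

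**Figure D5:**
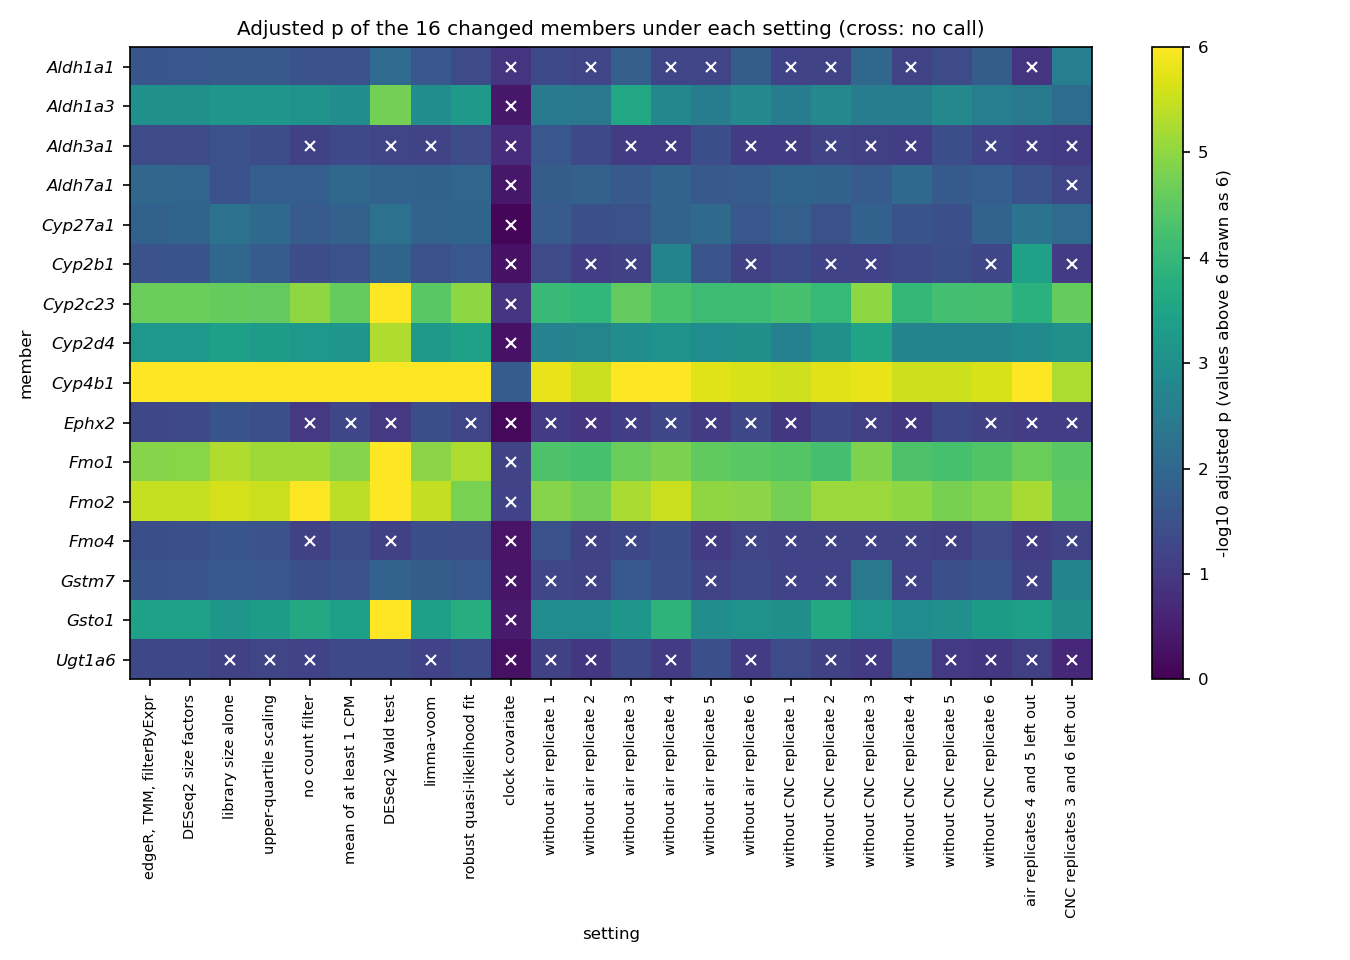
Colour gives -log10 of the adjusted p of the 16 changed members (rows) under the settings reported and 23 alternatives (columns), on a scale cut at 6; a white cross marks a setting in which the member was not called. Cyp4b1 has no cross, and each other member has a cross under the clock covariate, with the most crosses for Ephx2 (17) and Ugt1a6 (15).

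The plot of adjusted p by setting divides the 16 changed members. Calls held in all 12 fits without 1 rat for 9 of them, namely Cyp4b1, Fmo2, Fmo1, Cyp2c23, Cyp2d4, Cyp27a1, Aldh1a3, Aldh7a1 and Gsto1. The 7 others, Ephx2, Ugt1a6, Aldh3a1, Fmo4, Aldh1a1, Gstm7 and Cyp2b1, had adjusted p between 0.0253 and 0.0491 with all rats and lost their call in at least 1 of those fits.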

How the data were processed

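Per the labels' protocols, RNA was isolated from a piece of lung with a kit that retains small RNA, and TruSeq stranded mRNA libraries were amplified over 12 PCR cycles. Tools named in the submitters' processing notes, whose roles are not stated, are HTSeq 0.11.2, SAMtools 1.8, HISAT2 2.1.0, Cufflinks, Trimmomatic 0.35 and bcl2fastq 2.19. The authors deposited unnormalized counts for 12 libraries and 30045 gene symbols. The build Rnor6 stands in the deposited table's name. The sources used here do not give the annotation or how strand was handled in counting. Overlapping, antisense and near-identical genes are uncertain for that reason. Aldh18a1 is listed at 0 beside a copy with a suffix.

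Groups follow the labelled treatment, and a replicate number is a name for a rat. Rats are separate animals, so p-values measure the spread between them. The fit held no term for cage or chamber, so p-values do not measure a spread between those. No library was a repeat of another in its group: 30 pairs of libraries from the same group had a chi-square per degree of freedom of 2.69 to 8.36 (sampling noise gives 1). Pairs across the groups were not checked. Amplified reads are not independent molecules.

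Counts were tested across all genes in R 4.3.3 with edgeR 4.0.16 (filterByExpr defaults, minimum count 10, minimum total 15, TMM, glmQLFit, glmQLFTest) with Benjamini-Hochberg adjustment over 15019 genes. The common biological coefficient of variation was 8.05%. The SE is the size of the log2 fold change over the square root of F. The procedure was tested on simulated data. Alternatives used DESeq2 1.42.0, limma 3.58.1, other scalings and filters, a clock covariate (log2 CPM), and fewer rats. Plots used matplotlib 3.10.9 under Python 3.11.15.

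The members, the 7 pathway lists, the 10 marker lists, the pairs of rats left out and the rule for named genes were chosen with earlier results of these data known. Named are all called members with a mean of at least 1 CPM, a fixed panel of 22 enzymes, and up to 4 called genes of smallest adjusted p per pathway list. Some single genes that this rule names are not reported here. Full values were given for changes of at least 1.5-fold and the 2 smallest adjusted p per family and direction. Cyp2a3, Ephx3, Gsta3, Fmo5, Por, Nqo1, Gclc and the other genes outside this rule were chosen after their values were seen. Of 178 symbols, 173 matched the RefSeq table of GRCr8 directly and 1 through a synonym.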

Additional observations from a re-analysis of the deposited data

Results flagged for a closer look

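In 11 of 156 groups of 6 rats, one per tested member and treatment, a single rat lay far from the others relative to the range of its group, where chance gives about 1 in 20. Low rats were air replicate 6 for Aldh3a2 at 91.4 CPM (the others 98.5 or more), CNC replicate 4 for Aldh6a1 at 80.3 CPM, air replicate 1 for Aldh5a1 at 22.3 CPM and air replicate 4 for Ephx4 at 0.84 CPM. High rats were air replicate 1 for Gstm4 at 32.3 CPM, CNC replicate 1 for Aldh1a2 at 34.7 CPM (the next at 19.2), air replicate 3 for Cyp4f6 at 18.5 CPM, air replicate 4 for Aldh1a7 at 5.27 CPM and air replicate 5 for Sult1c2a at 1.52 CPM. Fmo4 had a high rat in both groups, air replicate 5 at 14.1 CPM and CNC replicate 6 at 10.6 CPM. Without air replicate 5, Fmo4 was at -0.17 (adjusted p = 0.0903).

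Among members that were not tested, Ugt1a7c had 8 counts over the CNC libraries, spread over 5 of them, and 0 over the air libraries. Ugt2a3, a glucuronosyltransferase of bile acids and drugs, had 4 counts over the CNC libraries and 0 over the air libraries. Fitted with no filter on counts, Ugt1a7c was called (adjusted p = 0.036) and Ugt2a3 was not (adjusted p = 0.154).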

How the results depend on the processing

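Over 23 alternatives, the count of changed members kept within 1.5 times of 16 apart from these cases. With the clock covariate, 587 genes, 1 member (0 higher, 1 lower) and 7 pathway list genes changed, against 73 such genes without it. Leaving out 1 rat gave 10 to 19 changed members, 3 to 6 higher and 7 to 16 lower (lowest without air replicate 2), and 62 to 72 pathway list genes. Without CNC replicates 3 and 6, 2 members were higher and 16 lower. Scaling moved the share of higher calls among all calls: 53.7% with TMM, 52.8% with DESeq2 size factors, 47.8% with upper-quartile scaling and 43.9% with library size alone, with the median of all genes at -0.03 in the last. The cause was not tested for any of these.

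The one called member whose sign turned was Cyp2b1, at 0.12 with the clock covariate. The other signs that turned belong to members without a call. With the clock covariate, Aldh2 was at -0.03, Ephx1 at -0.23, Gsta1 at -0.42, Gstm1 at -0.29, Gstp1 at -0.02, Gstt1 at -0.04 and Sult1a1 at 0.02. Without CNC replicates 3 and 6, Aldh2 was at -0.05, Gsta1 at -0.37, Gsta3 at -0.11, Gstm1 at -0.06, Gstp1 at -0.25 and Gstt1 at -0.10. Without air replicates 4 and 5, Cyp2e1 was at -0.01. Under library size alone and upper-quartile scaling Aldh2 was at -0.01 in each and Gsta1 at -0.01 and -0.00, and under limma-voom Gsta1 was at -0.06. Over the 12 fits without 1 rat, Aldh2 ran from -0.01 to 0.02 (below 0 without CNC replicate 3 or 6), Ces1d from -0.08 to 0.01 (above 0 without CNC replicate 1 or 4), Gstt1 from -0.00 to 0.12, Sult1a1 from -0.14 to 0.00, and Gsta1 from -0.16 to 0.10, below 0 without CNC replicate 3 or 6 or air replicate 1 or 5.

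No paired analysis was possible because the replicate numbers were given in accession order and pair no rats across the groups. Depth limits what can be said of the 100 untested members, of which 61 had a fit with no filter and 2 were then called.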
